A study of Mus musculus with 80 samples.

Results

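The genes described here lie next to the dopamine receptor genes Drd1 and Drd2 in the mouse genome. They were 6 genes named by their place: Sfxn1 and Hrh2 beside Drd1, and Ttc12, Ankk1, Tmprss5 and Ncam1 beside Drd2. Of these, 5 had a row in the expression table of 25160 genes, and Tmprss5 was not analysed here. The genes were chosen by their position and with their TPM in the 2 cell groups in view, so levels, shares of cells and differences between the cell groups are given as a description of these cells and carry no test.

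Each sample was the cDNA of 1 cell from the dorsomedial striatum of adult female mice heterozygous for 2 reporters, Drd1a-TdTomato and Drd2-EGFP. Both reporters were present in every animal, so all cells carried both transgenes, and a cell was put in a group by the reporter it displayed when sorted by FACS. There were 40 Drd1a-TdTomato cells, taken as D1 MSN (medium spiny neurons of the direct pathway), and 40 Drd2-EGFP cells, of which 38 were taken as D2 MSN (those of the indirect pathway) and 2 as cholinergic interneurons, since their Chat, the acetylcholine-synthesizing enzyme, stood above 100 TPM. The paper reports that not every cell it sequenced gave usable data. The cells concerned are not named in the sources used here, so none could be left out on that ground. The groups used here may therefore hold cells that the paper set aside. The MSN came from 3 animals in 3 experiments and lay on 3 plates, each with cells of both groups. The labels do not link a cell or a plate to an animal, so cells could not be summed per animal, each group was taken as 1 sample, and no p-value was computed.

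Both reporter lines are BAC transgenics. A bacterial artificial chromosome is a long piece of genomic DNA that holds a gene together with much of what flanks it, and a reporter sequence is put in place of, or at the start of, the receptor's coding sequence. A gene that flanks the receptor can therefore be present in extra copies in such animals, if it lies whole within the piece. Which of the genes named here lie within the pieces used for these mice is not given in the sources used here, and the expression of the reporters themselves was not analysed here. Extra copies from a transgene and the gene's own regulation cannot be told apart in these data, as no cell without the transgenes was measured.

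By GENCODE M21 on GRCm38, Drd1 lies on the minus strand of chromosome 13 from 54051183 to 54055705. Sfxn1 lies on the plus strand from 54071869 to 54108342, so the pair points away from each other with 16.2 kb between the genes. Hrh2 follows on the plus strand from 54192129 to 54236180, 136 kb from Drd1. On chromosome 9, Drd2 lies on the plus strand from 49340627 to 49408177. Ankk1 (49415194 to 49427021), Ttc12 (49436963 to 49486225) and Ncam1 (49502136 to 49798925) follow on the minus strand, so Ankk1 and Drd2 point toward each other with 7.02 kb between their ends. Ttc12 is 28.8 kb and Ncam1 94.0 kb from Drd2. Tmprss5 (49081260 to 49117587, plus strand) lies on the other side of Drd2, 223 kb away.

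Sfxn1 encodes a sideroflexin, a carrier of serine across the inner mitochondrial membrane that feeds one-carbon metabolism. Hrh2 encodes the histamine H2 receptor, which couples to Gs like the D1 receptor. Ankk1 encodes an ankyrin repeat protein kinase, Ttc12 a protein that takes part in the assembly of axonemal dynein arms, Ncam1 the neural cell adhesion molecule of neurites and synapses, and Tmprss5 a transmembrane serine protease. The human counterparts of Ncam1, Ttc12, Ankk1 and Drd2 form a block of neighbours that is often studied as a unit in human genetics.

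The stretches before the starts of Sfxn1, Hrh2 and Ttc12 are shown because these listed neighbours have an entry in the RefSeq promoter table (GRCm38.p6). Whether these genes differ between the groups was not tested. Each is the 250 bases before a transcript start, 5′ to 3′ on the gene's strand, and capitals mark a GC box (GGGCGG on either strand, CCGCCC when read from the other).
Sfxn1, chr13:54071595-54071844, plus strand: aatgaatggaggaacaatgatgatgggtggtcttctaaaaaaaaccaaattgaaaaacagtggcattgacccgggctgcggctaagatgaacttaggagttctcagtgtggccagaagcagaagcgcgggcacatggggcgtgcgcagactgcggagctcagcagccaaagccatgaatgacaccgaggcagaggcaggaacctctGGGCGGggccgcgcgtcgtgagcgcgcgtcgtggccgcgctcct
Hrh2, chr13:54191879-54192128, plus strand: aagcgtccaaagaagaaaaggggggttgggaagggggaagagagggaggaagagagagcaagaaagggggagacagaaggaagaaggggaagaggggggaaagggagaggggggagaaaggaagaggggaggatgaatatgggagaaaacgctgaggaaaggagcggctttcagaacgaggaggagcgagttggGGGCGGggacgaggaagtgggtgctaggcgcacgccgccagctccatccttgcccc
Ttc12, chr9:49486226-49486475, minus strand: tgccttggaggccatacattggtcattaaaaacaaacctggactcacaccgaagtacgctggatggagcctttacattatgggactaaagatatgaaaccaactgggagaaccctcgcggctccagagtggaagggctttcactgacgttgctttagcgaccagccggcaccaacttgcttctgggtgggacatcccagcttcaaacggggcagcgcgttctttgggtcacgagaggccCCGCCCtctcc

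A GC box was in all 3 of these windows and in 32.7% of the 32851 mouse promoter windows of the same length. The Sfxn1 window held 58.0% G and C and 19 CpG, against a median of 52.4% and 6 CpG over all windows. At least 19 CpG were in 19.7% of all windows. A TATA box (TATAAA) was in none of the 3 windows and in 12.4% of all windows. The cAMP response element (TGACGTCA) was in none of them and in 1.55% of all, and its shorter form TGACG, which is part of it, was in the Ttc12 window and in 17.8% of all. The CCAAT box (CCAAT) was in the Ttc12 window, on the other strand, so that it reads ATTGG in the printed letters. It was in 33.8% of all. The E-box (CACGTG) was in none of the 3 windows and in 6.02% of all. These matches describe letters in the windows and say nothing of the factors that bind there.

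The values are TPM, a level scaled for gene length and for the total of its cell. The listed genes of a cell summed to between 506588 and 958040 TPM, so part of the total lay outside them, and levels of different genes also depend on the gene models used for counting, which was not tested. Read numbers cannot be had from TPM, and the paper gives only a median depth over cells, so the depth of each cell is unknown. A gene is written as listed at 0 rather than as absent. D1 MSN had 648 to 8657 genes above 1 TPM (median 5722), and D2 MSN had 1215 to 7942. All 5 marker genes of D1 MSN (Drd1, Pdyn, Tac1, Isl1, Slc35d3) had a log2 fold above 1 toward D1 MSN and all 4 of D2 MSN (Drd2, Adora2a, Penk, Gpr6) a log2 fold below -1. In single cells the summed marker levels overlapped between the groups. The sum of the D1 MSN markers ran from 0.871 to 8612 TPM in D1 MSN (median 1253) and from 0 to 1218 TPM in D2 MSN (median 1.84). That of the D2 MSN markers ran from 1.67 to 3682 TPM in D1 MSN (median 11.6) and from 527 to 50882 TPM in D2 MSN (median 10848). A pair of Drd1a-TdTomato cells stood apart. In well D04 (plate FACS051_5), Drd1 was at 2.03 TPM and the astrocyte gene Aldoc at 10427 TPM, and in well B02 (plate FACS086_4) 648 genes were found. The summed level of 4 listed astrocyte markers ran from 0 to 2654 TPM in D1 MSN (median 0.545) and from 0 to 45.5 TPM in D2 MSN (median 0.130), with 3 of the 4 past a log2 fold of 1 toward D1 MSN. Its part in the differences was not tested.

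**Figure D1:**
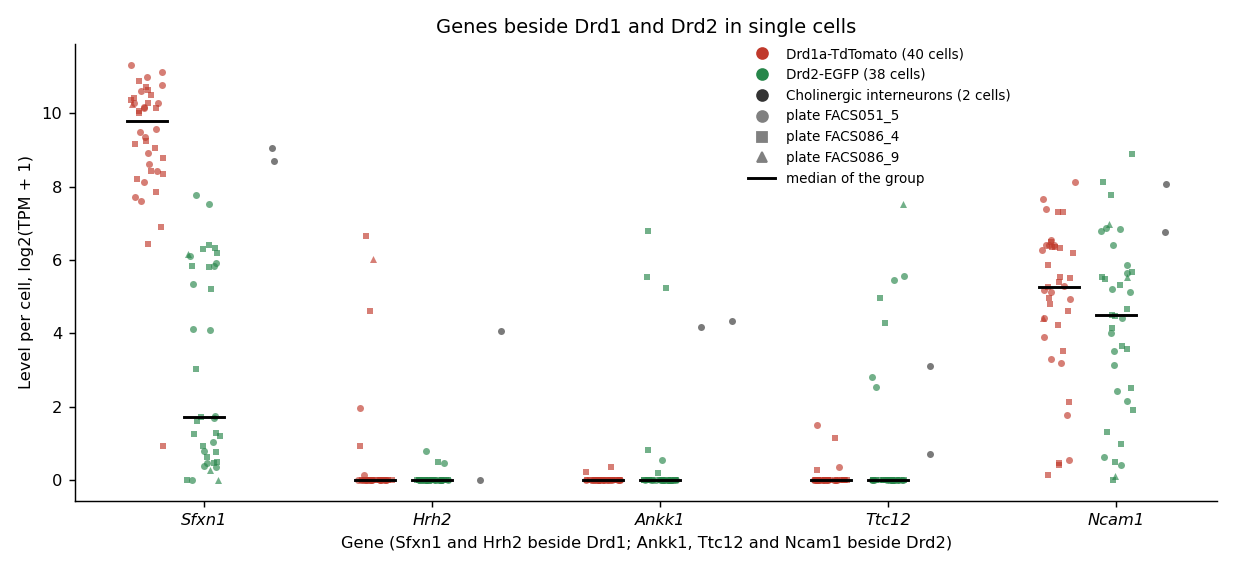
Level of the 5 genes in each cell, as log2 of TPM plus 1 (vertical axis), for Drd1a-TdTomato cells (red), Drd2-EGFP cells (green) and 2 cholinergic interneurons (black). Marker shapes stand for plates, and black bars mark group medians. Sfxn1 lies above every green cell in 35 of the 40 red cells, Hrh2, Ankk1 and Ttc12 are at or near 0 in most cells with a few high ones, and Ncam1 spreads over the same range in both groups.

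Sfxn1 was found in nearly every D1 MSN at high level and in D2 MSN at low level. In the 40 D1 MSN, its lowest value was 0.888 TPM, its median 892 TPM and its highest 2557 TPM. In the 38 D2 MSN, its lowest value was 0 TPM, its median 2.27 TPM and its highest 219 TPM. The groups overlapped only at their edges, since 35 D1 MSN lay above the highest D2 MSN and the other 5 were at 0.888, 84.9, 118, 193 and 211 TPM. The lowest of these was the cell with 648 genes, and only 2 D2 MSN exceeded the second lowest D1 MSN.

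The log2 fold of Sfxn1, taken from the ratio of mean TPM plus 1, was 4.83, with a mean of 934 TPM for D1 MSN against 31.9 TPM for D2 MSN. Within the 2 large plates, the log2 fold was 4.62 on FACS051_5 (18 D1 and 16 D2 MSN) and 4.98 on FACS086_4 (21 and 19). Of the 7500 genes with a fold and a mean of at least 10 TPM, 15 had a larger log2 fold toward D1 MSN. Without the cells in wells D04 and B02, the log2 fold was 4.89. On the third plate, the only D1 MSN had 1225 TPM and the 3 D2 MSN had 0, 0.208 and 71.2 TPM.

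D2 MSN fell into a lower and a higher range of Sfxn1, by limits chosen after the values were seen. In 21 cells Sfxn1 was at most 2.34 TPM, in 17 it was at least 7.14 TPM with a median of 59.4 TPM, and none lay between. The 17 cells held 98.4% of the Sfxn1 summed over D2 MSN. Both large plates held 8 of them. The D2 MSN with the most Sfxn1 (219 TPM, well A12 of FACS051_5) had Drd1 at 2.35 TPM and Drd2 listed at 0, with EGFP at 868 a.u. and TdTomato at 103 a.u., against EGFP of 13 to 213 a.u. and TdTomato of 1001 to 4451 a.u. in D1 MSN. Since cells were put in groups by this fluorescence, it does not bear on the identity of the cell. The summed level of the 4 D2 MSN markers was at least 527 TPM in every D2 MSN, this cell among them. In D1 MSN the same sum reached 3682 TPM. The identity of this cell was not tested.

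In TPM as deposited, Sfxn1 stood above Drd1, the receptor gene next to it, in 34 of the 40 D1 MSN. Drd1 itself had a median of 180 TPM in D1 MSN (0 to 501 TPM) and of 0.291 TPM in D2 MSN (0 to 4.05 TPM). Over the 38 D1 MSN with Drd1 above 1 TPM, the median ratio of Sfxn1 to Drd1 was 5.18. Drd1 was below 10 TPM in 4 D1 MSN, and in 3 of these Sfxn1 was still high. The cell in well B07 of FACS051_5 had Drd1 listed at 0 and Sfxn1 at 393 TPM, that in well B12 had 4.02 and 481 TPM, and that in well D04 had 2.03 and 280 TPM. The fourth was the cell with 648 genes, which had neither above 1 TPM.

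**Figure D2:**
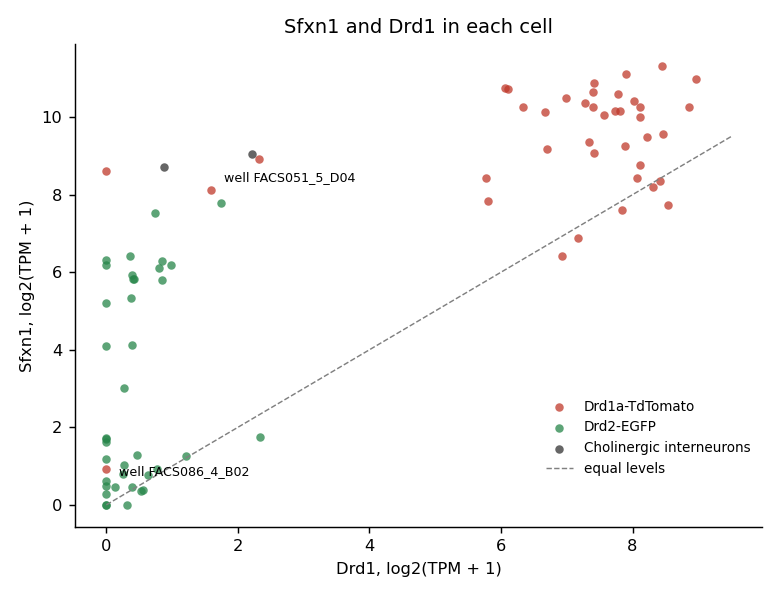
Sfxn1 (vertical axis) against Drd1 (horizontal axis) in each cell, both as log2 of TPM plus 1, with the dashed line at equal levels. Most Drd1a-TdTomato cells (red) lie above the line at the upper right, Drd2-EGFP cells (green) are spread upward at Drd1 levels near 0, and both cholinergic interneurons (black) lie high with Drd1 below 4 TPM.

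Among D1 MSN, the relation of Sfxn1 to Drd1 was weak once the 2 unusual cells were left out. On the log2 scale, Pearson's r was 0.52 and Spearman's rho 0.21 over all 40 cells, and r was 0.18 and rho 0.10 over the other 38. The number of genes per cell, which moves with RNA content and depth, had an r of 0.61 with Sfxn1 over the 40 cells and of 0.44 over the 38. Over all 78 MSN, Drd1 was the gene whose pattern was most like that of Sfxn1 (r = 0.82 on log2 values, of 7768 genes found in at least 25% of the cells), followed by Tac1 (0.68), the substance P precursor, and Slc35d3 (0.61), a nucleotide sugar transporter. An r over both groups contains the difference between them. Within the 40 D1 MSN the most alike genes were Pcp4, Gapdh and Ppp1r1b (0.83, 0.83 and 0.81), which are abundant in these neurons. Without wells D04 and B02 they were Rnf103, Txnrd1 and Myo18a (0.64, 0.61 and 0.61), and Drd1 ranked 3079th.

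Hrh2 exceeded 1 TPM in few cells, all of them D1 MSN apart from 1 cholinergic interneuron. These were 4 of the 40 D1 MSN (exact Clopper-Pearson 95% interval 2.79% to 23.7%, for counting error only), at 99.2, 63.6, 23.4 and 2.88 TPM. Of the 38 D2 MSN, 0 exceeded it (upper bound 9.25%), and its highest value was 0.717 TPM and 35 cells were listed at 0. The intervals of the shares overlap. The 4 cells came from all 3 plates, with TdTomato from 1660 to 4451 a.u., Drd1 from 167 to 340 TPM and Sfxn1 from 325 to 1225 TPM.

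The log2 fold of Hrh2 was 2.47, from a mean of 4.75 TPM against one of 0.0397 TPM. This mean rests on 3 cells, and the fold was 0.13 within FACS051_5 and 2.75 within FACS086_4. An antisense gene, Gm16578, shares 145 of the 5935 exonic bases of Hrh2, and the cDNA kit used does not keep strand. Gm16578 had no row in the expression table.

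On the Drd2 side, Ttc12 was found in some D2 MSN and at most at traces in D1 MSN. It exceeded 1 TPM in 7 of 38 D2 MSN (18.4%, interval 7.74% to 34.3%), at 184, 46.6, 42.6, 30.3, 18.3, 5.95 and 4.81 TPM. Among D1 MSN 2 of 40 did so (interval 0.611% to 16.9%), at 1.80 and 1.21 TPM, the former in the cell in well D04. Each of the 7 values was higher than the highest value in D1 MSN, while the intervals of the shares overlap and 31 D2 MSN were listed at 0.

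The log2 fold of Ttc12 was -3.17, from a mean of 0.0873 TPM for D1 MSN against 8.76 TPM for D2 MSN. Within plates the fold was -2.70 on FACS051_5 and -1.74 on FACS086_4. Without its highest cell, on the third plate, the D2 MSN mean of Ttc12 was 4.02 TPM. The 7 cells had EGFP between 627 and 1134 a.u., within the range of 502 to 1765 a.u. (median 869) of all D2 MSN. Drd2 was at 34.7 to 93.7 TPM in 4 of the cells with Ttc12 and listed at 0 in the other 3, among them the cell with 184 TPM.

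Ankk1, the nearest of all to Drd2, was found in fewer cells than Ttc12. It exceeded 1 TPM in 3 of 38 D2 MSN (7.89%, interval 1.66% to 21.4%), at 110, 44.9 and 36.7 TPM, all on plate FACS086_4. In the 40 D1 MSN its highest value was 0.282 TPM and 38 cells were listed at 0 (0 of 40 above 1 TPM, upper bound 8.81%). The log2 fold was -2.59, from means of 0.0109 and 5.08 TPM, and -3.45 on FACS086_4. On FACS051_5 all 18 D1 MSN were listed at 0 and the highest D2 MSN had 0.448 TPM, so no fold is given. The 3 cells with Ankk1 had EGFP of 908, 734 and 777 a.u. and Drd2 of 0, 67.4 and 9.31 TPM. In 1 D2 MSN, in well B11 of FACS086_4, both genes were above 1 TPM, with Ankk1 at 110 TPM and Ttc12 at 18.3 TPM, and 9 D2 MSN had at least 1 of them.

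Drd2 itself was listed at 0 in 11 of 38 D2 MSN and had a median of 18.2 TPM and a highest value of 459 TPM. Of the D1 MSN, 2 of 40 had more than 1 TPM of Drd2, with a highest value of 5.74 TPM. Its mean of 50.0 TPM in D2 MSN was lower than that of Drd1 in D1 MSN (195 TPM), and Ankk1 and Ttc12 lay below it, whereas Sfxn1 lay above Drd1.

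Ncam1 was found in most cells of both groups at similar levels. In D1 MSN it ran from 0.0986 TPM to 278 TPM with a median of 37.7 TPM, and in D2 MSN from 0 to 474 TPM with a median of 21.4 TPM. The groups overlapped over nearly their whole range. More than 1 TPM was found in 36 of 40 D1 MSN, with an interval of 76.3% to 97.2%, and in 32 of 38 D2 MSN (84.2%, interval 68.7% to 94.0%).

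The means of Ncam1 were 58.3 and 55.1 TPM, a log2 fold of 0.08, and the plates fell on both sides of 0 with 0.74 on FACS051_5 and -0.39 on FACS086_4. The antisense gene Gm11149 shares 417 of the 8664 exonic bases of Ncam1 and was above 1 TPM in 1 cell of each group, at 9.07 TPM in the D1 MSN and 25.8 TPM in the D2 MSN. The number of genes per cell had an r of 0.48 with Ncam1 in D1 MSN and of 0.38 in D2 MSN. The genes most alike in pattern to Ncam1 over the 78 cells were Cttnbp2, Papola and Kifap3, with r of 0.51, 0.48 and 0.48, and 7 of the 38 D2 MSN had more than 100 TPM of it against 5 of the 40 D1 MSN.

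In D1 MSN the order of mean levels was Sfxn1, Ncam1, Hrh2, Ttc12 and Ankk1. The middle 50% of cells did not overlap between Sfxn1 (344 to 1333 TPM) and Ncam1 (16.7 to 81.8 TPM), whereas the medians of Hrh2, Ttc12 and Ankk1 were all 0, so those 3 cannot be ordered by a typical cell. In D2 MSN the order was Ncam1, Sfxn1, Ttc12, Ankk1 and Hrh2. There the middle 50% of cells overlapped between Ncam1 (4.46 to 49.6 TPM) and Sfxn1 (0.582 to 56.0 TPM), and the last 3 again had medians of 0.

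Of the 5 genes, 2 had a log2 fold above 1 and 2 below -1, each toward the group named for the receptor beside it. Over the 19966 genes for which a fold could be given, 14.2% were above 1 and 10% below -1, and the median log2 fold was 0.05. Genes found in few cells pass such a limit more often. Among the 5538 genes above 1 TPM in 3 to 9 cells, which is where Hrh2, Ttc12 and Ankk1 fall with 4, 9 and 3 cells, 18.9% were above 1 and 13.7% below -1. On both large plates at once, 4.28% of 15213 genes were above 1 and 3.53% below -1, and of the 5 genes only Sfxn1 and Ttc12 were past the limit on both, while Hrh2 was not and Ankk1 had no fold on FACS051_5. As the genes were chosen with these values known, nothing is read from the counts.

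A wider stretch around each receptor gene puts the values beside those of other neighbours. Within 1000 kb of Drd1, 25 genes were listed, and 18 of those other than Sfxn1 and Hrh2 had a fold. Of the 18, 2 were above 1 (Thoc3, 1.24, with 2.56 and -0.31 within the large plates, and Uimc1, 1.58) and 2 below -1 (Sptlc1, -1.91, and 4833439L19Rik, -1.23), with a median of 0.20. Uimc1 had folds of 1.74 and 1.25 within the large plates, yet fewer D1 MSN (6) than D2 MSN (13) passed 1 TPM. Its D1 MSN mean of 23.8 TPM includes a cell at 643 TPM, and the fold without that cell was not computed. Cplx2, a complexin of synaptic vesicle release 316 kb from Drd1 and the nearest listed gene after Hrh2, had a log2 fold of 0.93, with means of 119 and 62.3 TPM (0.91 and 0.78 within the large plates).

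Within 1000 kb of Drd2, 17 genes were listed, and 12 of those other than Ankk1, Ttc12 and Ncam1 had a fold. Of the 12, 2 were above 1 (Rexo2, 1.51, and Gm23653, 1.27) and 2 below -1 (Gm5617, -1.46, and Zw10, -3.15), with a median of -0.23. Within FACS051_5 and FACS086_4, Rexo2 had 1.97 and 0.51 and Gm23653 had 0.55 and 1.69. Gm5617 was above 1 TPM in 2 cells of each group. Zw10, a kinetochore and vesicle transport gene 262 kb from Drd2 on the Tmprss5 side, also had a fold toward D2 MSN below that limit. Its mean was 0.0215 TPM over D1 MSN against 8.04 TPM over D2 MSN, of which 7 of 38 exceeded 1 TPM, whereas 0 of 40 D1 MSN did. Its log2 fold was -4.20 on FACS051_5, and none is given on FACS086_4, where a group was listed at 0. Ttc12 was past the limit on both plates. On FACS086_4 its fold rests on 2 of 19 D2 MSN and on D1 MSN of at most 1.21 TPM, so Zw10 and Ttc12 cannot be ranked by it.

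**Figure D3:**
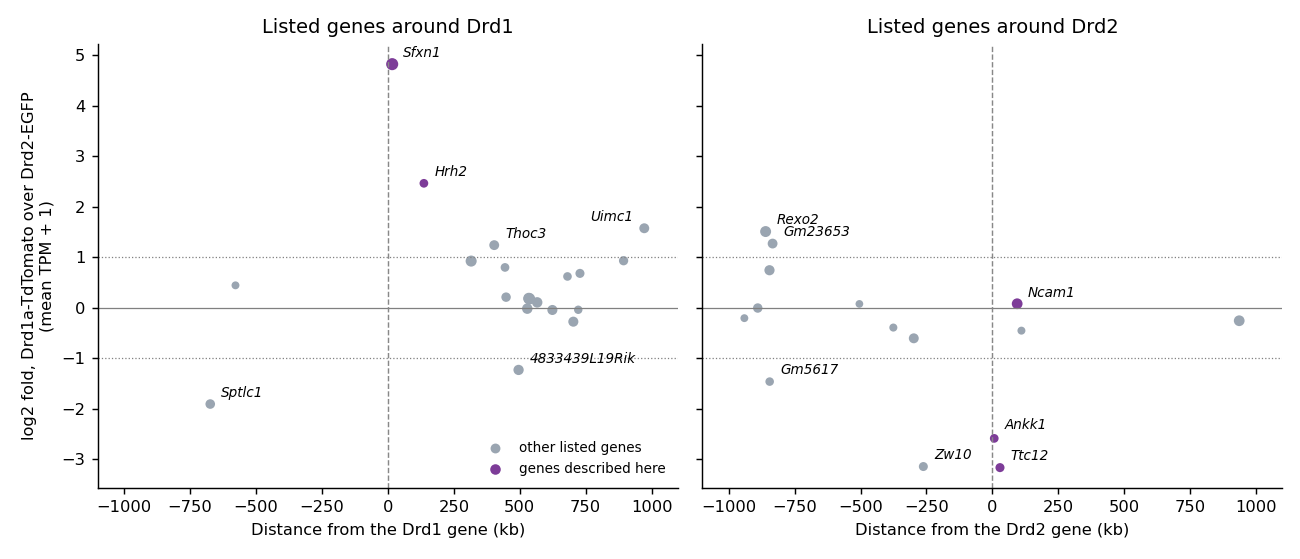
Log2 fold of mean TPM plus 1, Drd1a-TdTomato over Drd2-EGFP cells (vertical axis), against the distance from Drd1 (left) or Drd2 (right) in kb, negative toward lower positions. Each point is a listed gene with a fold, larger at higher mean level, and dotted lines mark 1 and -1. Sfxn1 at 4.83 and Hrh2 at 2.47 stand above the other genes around Drd1, and Ankk1 and Ttc12 lie beside Zw10 near the bottom of the Drd2 panel.

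The same count was made around 7 other genes that mark the subtypes and carry no reporter here (Pdyn, Tac1, Isl1, Slc35d3, Penk, Adora2a and Gpr6). Within 200 kb of Drd1 and Drd2, 4 of 6 listed genes with a fold were past the limit toward the receptor's own group, namely Sfxn1, Hrh2, Ankk1 and Ttc12, and Ncam1 and Gm11149 were not. Those 4 genes were chosen with their values known, so the count is set by the choice and nothing is read from its difference to the next one. Within 200 kb of the other markers, 4 of 20 genes were past the limit toward the marker's group and 0 toward the other group. No gene was listed within 200 kb of Isl1. Over all 19966 genes with a fold, 14.2% were above 1 and 10% below -1, and nothing is read from a count as small as 4 of 20. Within 100 kb the counts were 3 of 4 and 3 of 8, and within 500 kb they were 6 of 14 and 5 of 54.

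The labels give each cell's TdTomato and EGFP fluorescence, so the level of a neighbour can be set beside the brightness of the reporter. Sfxn1 had no clear relation to TdTomato in D1 MSN. Over 40 cells, Pearson's r of log2 values was 0.16 and Spearman's rho 0.10. Plate FACS086_4 was brighter than FACS051_5, with a median TdTomato of 3343 against 2147 a.u. Within plates r was higher, 0.41 on FACS051_5 (18 cells) and 0.52 on FACS086_4 (21 cells), with the cells in wells D04 and B02 the dimmest of their plates at 1001 and 1787 a.u. Without these 2 cells r was -0.04 over 38 cells, 0.29 on FACS051_5 and -0.01 on FACS086_4. For Drd1 and TdTomato, r was 0.35 over 40 cells and 0.12 over the 38. With the other channel, EGFP, which ran from 13 to 213 a.u. in these cells, the r of Sfxn1 was 0.23 over 40 cells, -0.18 on FACS051_5 and 0.68 on FACS086_4, and it was -0.03 over the cells with at least 2000 genes.

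In D2 MSN, Sfxn1 had an r of -0.29 and a rho of -0.33 with EGFP over 38 cells. The plates differed, with an r of -0.52 on FACS051_5 (16 cells) and of 0.05 on FACS086_4 (19 cells). With TdTomato, the r of Sfxn1 in these cells was 0.17 (-0.02 and 0.54 within the large plates). Drd2 had an r of -0.34 with EGFP and of -0.44 with TdTomato over the same cells. Ncam1 had an r of -0.27 with EGFP in D2 MSN (-0.29 and -0.24 within the large plates) and of 0.02 with TdTomato in D1 MSN, and with the other channel its r was -0.11 and 0.17. Hrh2, Ttc12 and Ankk1 were found in fewer than 10 cells of a group, so no correlation was computed for them. Cells share plate, depth and the number of genes found, and these values describe the cells measured.

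**Figure D4:**
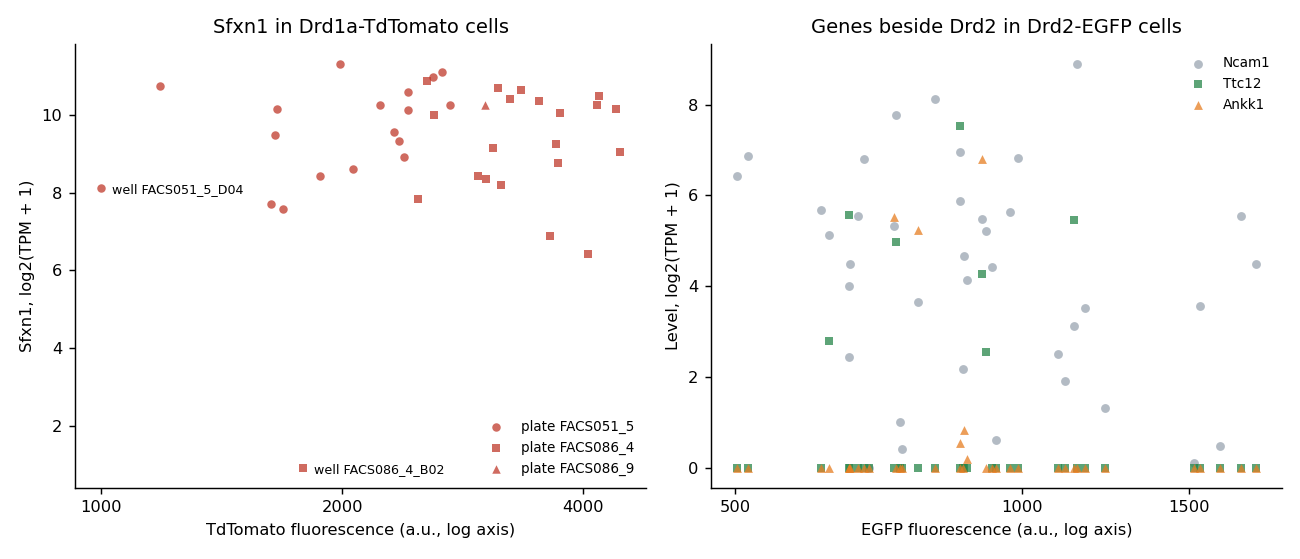
Left, Sfxn1 as log2 of TPM plus 1 against TdTomato fluorescence (a.u., log axis) in the 40 Drd1a-TdTomato cells, with plates by marker shape. Right, Ncam1, Ttc12 and Ankk1 on the same vertical scale against EGFP fluorescence (a.u., log axis) in the 38 Drd2-EGFP cells. The cells in wells D04 and B02 are the dimmest of their plates, and the cells with Ttc12 and Ankk1 lie in the lower to middle range of EGFP, between 627 and 1134 a.u.

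None of the other sideroflexins came near the level of Sfxn1 in D1 MSN. All 5 were listed, and the next by mean level there was Sfxn3, with 36.8 TPM in D1 MSN against 39.9 TPM in D2 MSN and a log2 fold of -0.11. Sfxn2 had a log2 fold of 0.004 over all cells, but 1.93 on FACS051_5 and -1.43 on FACS086_4. Sfxn4 and Sfxn5 were past the limit over all cells. The log2 fold was 1.11 for Sfxn4, with -0.72 and 1.65 within the large plates, and -1.09 for Sfxn5, with -0.23 and -2.21. In D2 MSN the mean of Sfxn1 (31.9 TPM) was below that of Sfxn3. Of 7 genes of serine and one-carbon metabolism, 2 were above 1 (Shmt2, 1.26, but -0.49 and 4.08 within the large plates, and Slc25a32, 1.05) and 1 below -1 (Mthfd1l, -1.84), with a median of 0.53. The mean of each of the 7 was at most 17.5 TPM in either group.

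Of the 4 other listed histamine genes, 2 had a log2 fold below -1 and none above 1. Hrh3, the presynaptic receptor, had a log2 fold of -1.06 from means of 16.8 and 35.9 TPM, with 16 of 40 D1 MSN and 21 of 38 D2 MSN above 1 TPM. Hnmt, the enzyme that inactivates histamine, had a log2 fold of -1.30 (-1.34 and -0.89 within the large plates). Hrh1, with a log2 fold of 0.86, was above 1 TPM in 1 cell, and Hdc, the enzyme that makes histamine, with one of 0.06, in 7 cells. Hrh2 was found in fewer cells than Hrh3 in both groups.

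Among the 5 other genes of neural cell adhesion and its polysialylation, 1 was above 1 (St8sia4, 1.19, but -1.30 and 2.66 within the large plates) and 1 below -1 (St8sia2, -1.32), and L1cam (0.02), Chl1 (-0.27) and Ncam2 (0.74) lay between. Of the 7 other listed genes of axonemal dynein assembly, 6 had a fold, 2 of them above 1 (Dnaaf5, 1.87, and Lrrc6, 1.03) and 1 below -1 (Zmynd10, -1.27), with a median of 0.74 against -3.17 for Ttc12. Ripk2, the 1 other listed kinase of the receptor-interacting family, had a log2 fold of -1.43 (-2.89 and -0.36 within the large plates). Of 8 transmembrane serine proteases, 2 were listed, Tmprss4 and Tmprss6, and each was above 1 TPM in at most 1 cell of a group.

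**Figure D5:**
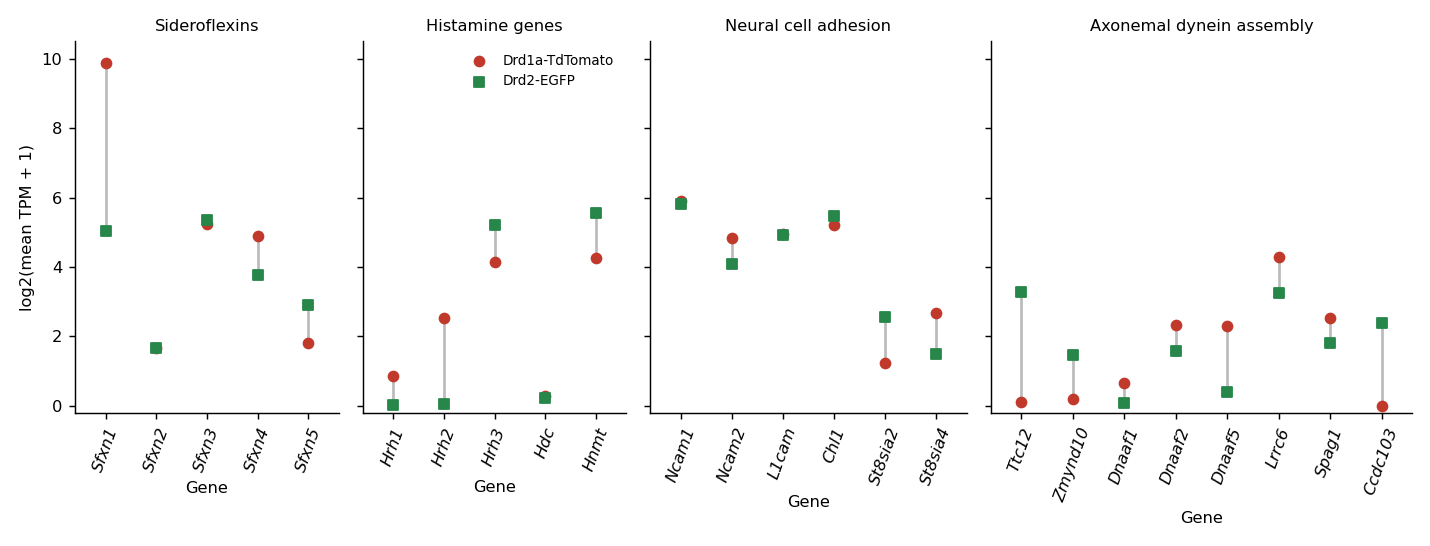
Mean level, as log2 of mean TPM plus 1 (vertical axis), of the listed sideroflexins, histamine genes, neural cell adhesion genes and axonemal dynein assembly genes in Drd1a-TdTomato (red circles) and Drd2-EGFP cells (green squares), joined by a grey line. Sfxn1 has the longest line among the sideroflexins, with means of 934 and 31.9 TPM, and Ncam1 has overlapping symbols.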

How the data were processed

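Reporter, plate, well and fluorescence of a cell came from the labels. The authors deposited TPM per gene and cell. Their methods name STAR 2.5.0, mm10/GRCm38 and featureCounts 1.5.1, and how the TPM were made is not given in the sources used here. cDNA came from a SMARTer kit that does not keep strand. The TPM were used as deposited. Depth is unknown. Only Drd2-EGFP cells whose Chat exceeded 100 TPM were left out. The log2 fold was taken between mean TPM plus 1, and given only where neither group was listed at 0 in all cells. A cell was counted above 1 TPM. Correlations used log2 values. No test was run, as the labels do not link cells to animals. Positions came from GENCODE M21 and promoter windows from RefSeq. The members, gene lists, limits and alternatives were chosen with earlier results of these data known. Named genes were the members, their listed neighbours past a log2 fold of 1 or nearest, their relatives, and the 3 genes most alike. The steps were checked on simulated data. Python 3.11.15, numpy 2.4.6 and pandas 2.3.3 were used.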

Additional observations from a re-analysis of the deposited data

Results flagged for a closer look

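Sfxn1 was high in both cholinergic interneurons, which were left out of both MSN groups. Plate FACS051_5 held both, and Sfxn1 was at 527 TPM in well A08 and 416 TPM in well B02, against a highest value of 219 TPM in the 38 D2 MSN and a median of 892 TPM in D1 MSN. Both cells carried Drd2-EGFP (770 and 638 a.u.) and had Drd1 at 3.64 and 0.834 TPM. They had 10912 and 10251 genes above 1 TPM, more than the 8657 of the richest D1 MSN. They are 2 cells of 1 plate, and no test was made.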

How the results depend on the processing

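No fold or correlation has a test, so directions and sizes are compared. The log2 fold of Sfxn1 stayed between 4.05 and 6.25 over the alternatives run. It was 4.49 with a pseudocount of 10 TPM, 6.25 as a difference of mean log2 values, 4.09 with the cholinergic interneurons kept and 4.05 when cells were scaled to their upper quartile. Of the 5 genes, 4 were past a log2 fold of 1, but only 1, Sfxn1, with a pseudocount of 10 TPM, with mean log2 values or with genes of a mean of at least 10 TPM, and 2 on FACS051_5 alone. Hrh2 ran from 0.13 to 5.12, Ttc12 from -5.56 to -0.79 and Ankk1 from -5.54 to -0.49, each with its sign kept, and Ncam1 from -0.39 to 0.74. The r of Sfxn1 with TdTomato was 0.16, 0.41 and 0.52 within the large plates, 0.043 without cells with fewer than 2000 genes and -0.045 without wells D04 and B02, an alternative chosen after seeing the data. No paired analysis was possible because the labels give the groups no shared replicate numbers and no test was made. The plates hold both groups, and folds within the large ones stand in the report.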

Other observations

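In the 2 cholinergic interneurons, Ankk1 and Ncam1 exceeded 1 TPM in both cells, and Hrh2 and Ttc12 in 1 of them. Ankk1 was at 19.1 TPM in well A08 and 17.0 TPM in well B02 of plate FACS051_5, whereas the 16 D2 MSN of that plate had at most 0.448 TPM. Ttc12 was at 0.626 and 7.60 TPM, Hrh2 was listed at 0 in the former and was at 15.8 TPM in the latter, and Ncam1 was at 106 and 268 TPM. Drd2 was at 97.2 and 79.5 TPM in these cells.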
